A study of Mus musculus with 24 samples.

Results

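The liver and the serum of mice on control chow were compared by the make-up of their mature miRNA signal. The 12 arrays were chosen by their labels from the 24 of the series. They comprised 6 liver arrays and 6 serum arrays, 2 of each tissue after 1, 2 and 6 weeks on the chow. All came from male C57BL/6NJcl mice, purchased when 5 weeks old and kept for 1 week of acclimatization before the solid diet CE-2 was given, so the animals were 7, 8 or 12 weeks old. No genetic change or drug was used, and the steatohepatitis diet of the rest of the series was given to none of them. Per the labels, serum was spun from heart blood collected in serum separator tubes. RNA was extracted from 200 uL of it, and 2.5 ng of serum RNA was labelled, against 100 ng of liver RNA. Because the labelled amount differs between tissues, each value is a share, the percent of the summed signal of all miRNAs detected on the same array. Nothing in the labels tells whether 2 arrays of one week stand for different animals, so p-values measure only the spread between arrays, which may be technical.

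A miRNA is cut from a hairpin transcript into a 5p and a 3p arm, and the arm that is loaded into an Argonaute protein represses mRNAs that pair with its seed, bases 2 to 8. Hepatocytes make up most of the liver and are known for miR-122, whose level in blood is used as a sign of liver injury. Serum holds miRNAs that blood cells and tissues release in vesicles or bound to proteins. Red cells, platelets, white cells, muscle, skin and endocrine cells each have miRNAs that are known to mark them.

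The sequences below belong to miRNAs on which the comparison turns. They are RefSeq sequences on build GRCm38.p6, written 5′ to 3′ with the seed in capitals, and RefSeq held 1608 of the 1881 miRNAs on the array. The first set shows the miRNAs that led one tissue or the other.
miR-6366 (chr16:18165093-18165114, minus strand): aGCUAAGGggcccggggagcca
miR-21a-5p (chr11:86584120-86584141, minus strand): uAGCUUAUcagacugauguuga
miR-192-5p (chr19:6264857-6264877, plus strand): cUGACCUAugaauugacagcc
miR-194-5p (chr1:185313325-185313346, plus strand, 1 of 2 loci): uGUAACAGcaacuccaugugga
miR-148a-3p (chr6:51269829-51269850, minus strand): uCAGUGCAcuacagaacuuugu
miR-3968 (chr11:115447969-115447989, minus strand): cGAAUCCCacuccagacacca
miR-3963 (chr3:151023839-151023857, minus strand): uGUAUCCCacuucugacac
miR-5100 (chr11:60728698-60728718, plus strand): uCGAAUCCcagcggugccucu
miR-451a (chr11:78073186-78073207, plus strand): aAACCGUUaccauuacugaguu
miR-3473b (chr10:41670774-41670793, plus strand): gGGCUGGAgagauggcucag
miR-223-3p (chrX:96242884-96242905, plus strand): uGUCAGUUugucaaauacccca
miR-23a-3p (chr8:84208563-84208583, plus strand): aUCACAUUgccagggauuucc
miR-140-3p (chr8:107551288-107551308, plus strand): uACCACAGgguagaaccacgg
miR-205-5p (chr1:193507503-193507524, minus strand): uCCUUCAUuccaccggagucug
The second set is the let-7 family, shown because its members carry 1 seed and differ from let-7a-5p at 1 to 4 of 22 positions.
let-7a-5p (chr13:48538239-48538260, minus strand): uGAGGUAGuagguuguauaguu
let-7b-5p (chr15:85707325-85707346, plus strand): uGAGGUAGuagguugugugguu
let-7c-5p (chr15:85706616-85706637, plus strand, 1 of 2 loci): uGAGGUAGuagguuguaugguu
let-7d-5p (chr13:48536078-48536099, minus strand): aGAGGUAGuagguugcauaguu
let-7e-5p (chr17:17830366-17830387, plus strand): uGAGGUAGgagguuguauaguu
let-7f-5p (chr13:48537889-48537910, minus strand, 1 of 2 loci): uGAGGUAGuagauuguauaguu
let-7g-5p (chr9:106178846-106178867, plus strand): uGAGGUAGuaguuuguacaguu
let-7i-5p (chr10:122985698-122985719, minus strand): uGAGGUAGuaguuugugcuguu
miR-98-5p (chrX:151913229-151913250, plus strand): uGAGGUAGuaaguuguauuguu
The third set shows relatives with 1 seed of which members were called in opposite directions, with miR-29c-3p, which was not called, beside its family.
miR-215-5p (chr1:185313610-185313630, plus strand): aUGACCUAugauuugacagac
miR-193a-3p (chr11:79712009-79712030, plus strand): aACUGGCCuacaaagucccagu
miR-193b-3p (chr16:13449570-13449591, plus strand): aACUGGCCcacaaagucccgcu
miR-29a-3p (chr6:31062673-31062694, minus strand): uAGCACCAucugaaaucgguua
miR-29b-3p (chr1:195037091-195037113, plus strand, 1 of 2 loci): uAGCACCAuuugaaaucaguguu
miR-29c-3p (chr1:195037600-195037621, plus strand): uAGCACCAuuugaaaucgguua
miR-15a-5p (chr14:61632075-61632096, minus strand): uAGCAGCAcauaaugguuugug
miR-15b-5p (chr3:69009775-69009796, plus strand): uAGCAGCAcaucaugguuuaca
miR-10a-5p (chr11:96317186-96317208, plus strand): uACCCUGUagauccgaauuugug
miR-10b-5p (chr2:74726074-74726096, plus strand): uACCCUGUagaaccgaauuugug
miR-27a-3p (chr8:84208727-84208747, plus strand): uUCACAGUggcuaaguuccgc
miR-27b-3p (chr13:63300760-63300780, plus strand): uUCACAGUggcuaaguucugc

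The arrays detected 288.8 ± 22.8 miRNAs in liver and 295.8 ± 49.9 in serum (SD, n = 6 each, exact permutation of tissue within weeks, two-sided p = 0.731). The summed detected signal ranged over 85842 to 134468 units in liver and over 14673 to 85100 in serum, and the week 1 replicate 2 serum array held the highest serum total, the next being 27766. Rank orders over the 136 miRNAs detected on all 12 arrays correlated at a Spearman rho of 0.960 to 0.995 between liver arrays (15 pairs), 0.847 to 0.962 between serum arrays (15 pairs) and 0.315 to 0.571 between a liver and a serum array (36 pairs). These are correlations across miRNAs, which are not independent replicates. Hepatocyte-enriched miRNAs summed to between 25.6% and 29.4% of the signal on the liver arrays and to between 0.411% and 1.81% on the serum arrays. Red cell miRNAs summed to between 1.07% and 1.76% in liver and to between 15.8% and 28.0% in serum.

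Liver signal was held by fewer miRNAs than serum signal. The 10 brightest miRNAs of an array carried 77.3% ± 1.85 of the signal in liver and 58.5% ± 3.75 in serum (SD, n = 6 each, exact permutation, two-sided p = 0.00926, the smallest this design allows). In liver 2 or 3 miRNAs made up 50% of the signal, against 5 to 9 in serum (exact permutation, two-sided p = 0.00926 for n = 6 each). The ranges of the tissues did not overlap in either measure. In liver, miR-6366 and miR-122-5p together held 43.1%, 47.6% and 51.6% (lowest, median and highest of 6 arrays), against 0.865%, 1.72% and 2.10% in serum. In serum the leading pair was miR-3963 and miR-451a, which together held 10.2%, 11.1% and 14.1% in liver and 23.0%, 31.2% and 37.2% in serum. The lists of the 10 largest mean shares had 2 miRNAs in common, miR-3963 and miR-5100, and the lists of the 50 largest had 25. Shares rest on probe signal, so the order of miRNAs within an array is an order of signal and not of molecules.

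**Figure D1:**
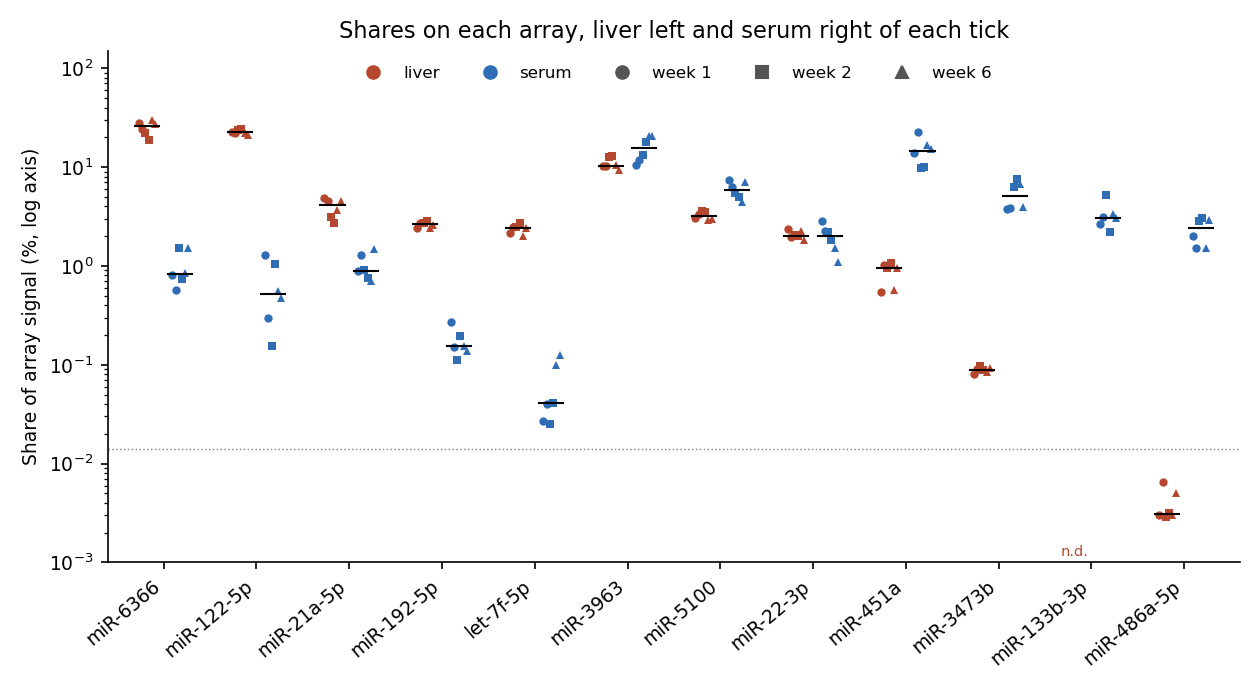
Share of the array's detected miRNA signal (y axis, percent, log scale) for 12 miRNAs (x axis), with liver arrays in red left of each tick, serum arrays in blue right of it, 1 symbol per week and a black line at the median. The liver arrays of miR-6366 and miR-122-5p lie above the serum arrays, those of miR-451a, miR-3473b and miR-486a-5p below them, and miR-133b-3p was not detected (n.d.) in liver; the dotted line is the floor of the fit.

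miR-122-5p, the hallmark miRNA of hepatocytes, had shares of 21.0%, 22.4% and 24.3% (lowest, median, highest) in liver and of 0.153%, 0.514% and 1.29% in serum. Its median rank was 2 in liver, where it was the brightest miRNA on both week 2 arrays, and 29.5 in serum. Every liver array was above every serum array, and the share was 45.0-fold higher in liver (log2 difference 5.49, SE 0.51, limma adjusted p = 2.01e-05). miR-6366, an annotated miRNA of which little is known, had 18.8%, 25.9% and 29.7% in liver and 0.569%, 0.833% and 1.52% in serum, a difference of 4.73 (SE 0.22, limma adjusted p = 2.60e-07). miR-192-5p and miR-194-5p, which are made from 1 cluster on chr19 and are rich in liver, gut and kidney, were also higher in liver. miR-192-5p had 2.40%, 2.64% and 2.82% in liver and 0.112%, 0.154% and 0.270% in serum, and differed by 3.99 (SE 0.18). miR-194-5p had 0.551%, 0.616% and 0.679% in liver and 0.00577%, 0.0123% and 0.0150% in serum, and differed by 5.43 (SE 0.06), with 4 serum values raised to the floor of the fit. That floor, 0.0140%, is the highest over arrays of the 5th percentile of detected shares, and lower shares were set to it before the difference was taken.

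Other miRNAs led the liver as well. miR-21a-5p, which is broadly expressed and rises in injured tissue, had 2.73%, 4.09% and 4.88% in liver and 0.710%, 0.894% and 1.47% in serum (difference 1.98, SE 0.19, limma adjusted p = 2.59e-05). miR-148a-3p, a hepatocyte-enriched miRNA linked to cholesterol uptake, had 0.649%, 0.880% and 1.01% in liver and 0.0334%, 0.0670% and 0.146% in serum (difference 3.59, SE 0.11). miR-3968 had 1.98%, 2.03% and 2.66% in liver and 0.0244%, 0.0357% and 0.0835% in serum, and its difference of 5.69 (SE 0.24, limma adjusted p = 1.41e-07) was the largest above 0 among miRNAs detected on all 12 arrays. It shares, as was noticed after the values were seen, the letters CGAAUCC with miR-5100, where they begin at base 1 in miR-3968 and at base 2 in miR-5100. This stretch is in 2 of 1679 RefSeq mature mouse miRNAs (0.119%), searched on the miRNA strand alone. miR-5100 went the other way, with 2.88%, 3.21% and 3.60% in liver and 4.46%, 5.89% and 7.38% in serum (difference -0.86, SE 0.12), a difference that was at 0.39 under median centring. miR-3963, the brightest miRNA of serum, had 9.28%, 10.3% and 13.03% in liver and 10.4%, 15.6% and 20.8% in serum (difference -0.49, SE 0.09), with overlapping ranges. Its difference was above 0 under median centring (0.76), 75th percentile scaling (0.29) and normexp background correction (0.047).

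Serum led in miRNAs of red cells, muscle and white cells. miR-451a, a red cell miRNA that is cut by Ago2 without Dicer, had 0.549%, 0.951% and 1.06% in liver and 9.74%, 14.5% and 22.6% in serum (difference -4.09, SE 0.21, limma adjusted p = 4.34e-07). miR-486a-5p, encoded in the erythroid and muscle gene Ank1, had 0.00286%, 0.00308% and 0.00648% in liver and 1.52%, 2.43% and 3.02% in serum. Its 6 liver values lay below the floor of the fit, so the difference of -7.31 (SE 0.16) understates the ratio of the shares. miR-3473b had 0.0816%, 0.0893% and 0.0970% in liver and 3.73%, 5.14% and 7.63% in serum (difference -5.86, SE 0.14). miR-223-3p, a myeloid miRNA that platelets also carry, had 0.0436%, 0.0590% and 0.0650% in liver and 1.47%, 1.65% and 2.36% in serum and was 32.0-fold lower in liver (SE 0.16 on the log2 scale). No liver array reached a serum array in any of these 4 miRNAs.

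In the fit across all miRNAs, 318 were tested, and 212 of them (66.7%) were called at an adjusted p below 0.05. Of these, 57 (17.9% of those tested) were higher and 155 (48.7%) lower in liver, and the groups did not overlap in 155 (48.7%). Of the 408 miRNAs that passed the detection filter, 102 did so through liver alone and 107 through serum alone, which favours the sign of that tissue. Among the 135 tested miRNAs detected on all 12 arrays, 34 of the calls were higher and 82 lower. The split into 57 higher and 155 lower calls depends on the scaling. It was 150 higher and 145 lower by percentile rank within the array, 105 and 136 under median centring, 137 and 138 under quantile normalization, 40 and 256 under normexp, and 60 and 102 over miRNAs numbered below 1000 alone, an alternative chosen after the data were seen. For the miRNAs that all 12 arrays detected, the difference had a median of -0.88 as reported, -0.45 under 75th percentile scaling, -0.30 under median centring and -0.04 under quantile normalization. Of the 57 higher calls 57 kept their sign under 5 other scalings (percentile rank, 75th percentile, median centring, quantile normalization and shares without the brightest miRNAs), and of the 155 lower calls 132 did. All 5 moved the median difference towards liver, so the higher calls had little room to lose their sign. Normexp, not among the 5, moved the median over tested miRNAs from -0.40 to -1.53 and kept the sign of 186 of 208 calls. Higher calls that fell below 0 under normexp included miR-100-5p (-0.29) and miR-126a-5p (-0.71). On the slide that held both tissues, 151 of 318 (47.5%) were called, 45 higher and 106 lower. That slide carried the liver arrays of week 1 and the serum arrays of week 6, so this value sets 2 arrays against 2 and also compares those weeks.

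**Figure D2:**
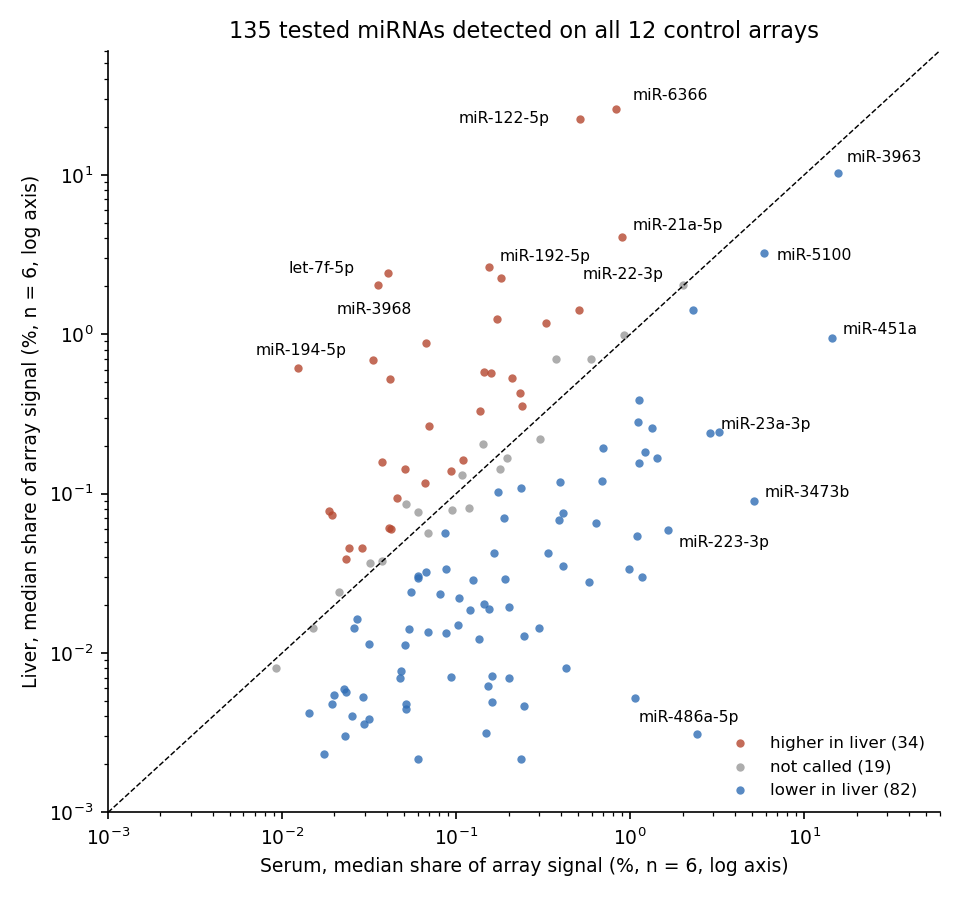
Median share of the array's signal in liver (y axis, percent, log scale) against that in serum (x axis, percent, log scale) for the 135 tested miRNAs detected on all 12 arrays, 1 point per miRNA, coloured by the limma call. The 34 miRNAs called higher in liver lie above the dashed line of equal share and the 82 called lower lie below it.

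Among miRNAs detected on all 12 arrays, the 12 with the largest positive differences were miR-3968, let-7f-5p, miR-122-5p, miR-194-5p, miR-6366, let-7d-5p, miR-192-5p, miR-148a-3p, miR-29b-3p, let-7a-5p, let-7g-5p and miR-103-3p, with differences between 2.25 and 5.69. miR-103-3p, made from introns of the pantothenate kinase genes, had 0.147%, 0.158% and 0.173% in liver and 0.0107%, 0.0376% and 0.0650% in serum. The 12 with the largest negative differences ran from -4.09 to -7.31. They were miR-486a-5p, miR-5128, miR-3473b, miR-466i-5p, miR-223-3p, miR-574-5p, miR-140-3p, miR-342-3p, miR-25-3p, miR-1897-5p, miR-451a and miR-1895. miR-466i-5p, placed by name alone with the large Sfmbt2 intron cluster, had 0.0238%, 0.0299% and 0.0361% in liver and 0.720%, 1.16% and 1.37% in serum. miR-342-3p, abundant in lymphocytes, had 0.0222%, 0.0278% and 0.0330% in liver and 0.414%, 0.580% and 1.04% in serum. The lists had no exception in sign over the 3 weeks, a condition of the naming rule. For miR-486a-5p, miR-574-5p and miR-1897-5p all 6 liver values, and for miR-5128 and miR-1895 5 and 3 of them, were set to the floor, so these differences are understated.

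Some miRNAs were detected on all 6 arrays of 1 tissue and on none of the other, and their folds are given only as bounds. Per array, the bound uses the higher of the lowest detected share and the summed signal of the miRNA's own probes. On all 6 serum arrays and no liver array there were 46 miRNAs, and 44 of them had a bound above 10-fold. miR-133b-3p, a muscle miRNA, had 2.18%, 3.08% and 5.21% in serum and was at least 2038-fold lower in liver. Its near copy miR-133a-3p had 1.32%, 1.90% and 3.30% in serum and was at least 1439-fold lower, and the pair may share signal on the array. miR-375-3p, known from pancreatic islets and neuroendocrine cells, was at least 251-fold lower in liver. miR-205-5p, known from skin and other stratified epithelia, was at least 231-fold lower, and miR-669n, placed by name with the Sfmbt2 cluster, at least 199-fold. The muscle miRNA miR-1a-3p was at least 157-fold lower, miR-32-3p at least 144-fold and miR-328-3p at least 133-fold. These bounds hold against the lowest detected shares or the probes' own signal alone, and other scales gave smaller values. At the floor of the fit the log2 differences of these 8 ran from -7.81 (miR-133b-3p) to -2.98 (miR-32-3p). They ran from -7.26 to -2.68 under normexp and from -7.03 to -1.45 with the brightest probe. Each of these 8 entered the fit through serum alone, with every liver value at the floor. Their fitted differences could not be above 0, so their limma adjusted p (6.94e-09 to 1.06e-06) adds no support for the direction.

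In the other direction, 38 miRNAs were detected on all 6 liver arrays and no serum array, and 2 of them had a bound above 10-fold. miR-122-3p, the partner arm of miR-122-5p, had 0.0784%, 0.0947% and 0.117% in liver and was at least 23.0-fold higher there. Its serum values all lay at the floor, so its fitted sign was fixed and its limma adjusted p (6.94e-09) adds no support. let-7e-5p had 0.0542%, 0.0681% and 0.0906% in liver and was at least 16.2-fold higher. These bounds rest on the lowest shares detected on each serum array and not on the floor of the fit, at which the differences were 6.86-fold for miR-122-3p and 4.84-fold for let-7e-5p. Under normexp the log2 differences were 1.43 for miR-122-3p and 0.63 for let-7e-5p. The next were miR-652-5p (at least 9.14-fold), miR-31-5p (8.51), miR-98-5p (8.21), miR-202-3p (6.45), miR-7a-5p (6.03) and miR-28a-5p (4.86). The fitted differences of these 6 were below 0 under normexp background correction, between -0.0024 for miR-31-5p and -0.53 for miR-28a-5p. Without serum week 2 replicate 2 the fitted differences were 1.503 against 0.98 for miR-202-3p, 1.23 against 0.71 for miR-7a-5p and 0.95 against 0.43 for miR-28a-5p. Such a rise was not particular to these. Leaving out 1 array gave at most 1.82 against 1.301 for miR-652-5p, 1.72 against 1.196 for miR-31-5p and 2.03 against 1.51 for miR-98-5p. It gave at most 3.298 against 2.78 for miR-122-3p and 2.79 against 2.27 for let-7e-5p. Bounds in this direction were limited by the lowest shares detectable on the dimmer serum arrays.

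Some miRNAs held like shares, and of those named here only miR-22-3p was abundant. miR-22-3p, a widely expressed miRNA that ranks among the top miRNAs of liver, had 1.84%, 2.03% and 2.35% in liver and 1.09%, 2.01% and 2.87% in serum (difference 0.15, SE 0.12, limma adjusted p = 0.324). Its 95% interval lay within 0.5 log2 units of 0, but on the slide with both tissues it differed by 0.74 (limma adjusted p = 0.0187). The leukocyte miRNA miR-142a-3p had 0.0697%, 0.0786% and 0.108% in liver and 0.0588%, 0.0944% and 0.153% in serum (difference -0.12, SE 0.16), and its value was above 0 under the 5 other scalings. miR-350-3p (-0.09), miR-148b-3p (-0.09) and miR-200a-3p (-0.01) also had intervals within 0.5 of 0, and their signs too were turned by other scalings. Liver shares of miR-148b-3p (0.0108% to 0.0153%) and miR-200a-3p (0.00990% to 0.0198%) lay about the floor of 0.0140%. Only 3 serum arrays detected miR-200a-3p. For miR-200a-3p the floor holds the difference near 0. miR-148b-3p was detected on every array. Its serum shares, taken without the floor, were 0.00898% to 0.0185%, a range that encloses its liver shares.

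Lists of cell type markers were read as counts, beside the 17.9% higher and 48.7% lower over all 318 and their median of -0.40. Of 11 hepatocyte-enriched miRNAs 10 were tested, 7 were higher in liver, 1 was lower and 2 were not called, with a median difference of 3.18. The 7 were miR-122-5p, miR-122-3p, miR-192-5p, miR-194-5p, miR-193a-3p, miR-148a-3p and miR-365-3p, and each was also called within the shared slide and had the same sign in the 5 other scalings. Under normexp these 7 stood between 0.76 (miR-365-3p) and 5.83 (miR-122-5p). miR-193a-3p had 0.205%, 0.219% and 0.240% in liver and was detected on 1 serum array, at 0.00424% (difference 3.97, SE 0.06). Of the 7, miR-122-3p and miR-193a-3p passed the filter through liver alone, with every serum value at the floor. Their fitted sign was fixed, within the shared slide as well, so these 2 add no support. Undetected values were set lowest in the 5 other scalings too. The member that went against the list, miR-215-5p, was detected on no liver array and had 0.0239%, 0.0430% and 0.0565% in serum. It was at least 52.3-fold lower in liver by its bound, with a log2 difference of -1.52 in the fit and -2.46 under normexp. Both endothelial miRNAs were higher in liver. miR-126a-3p had 0.987%, 1.18% and 1.31% in liver and 0.221%, 0.330% and 0.823% in serum (difference 1.69, SE 0.26), while miR-126a-5p differed by 0.20 (SE 0.07), a call lost with the slide as a block, and a value of -0.71 under normexp. The call was also lost without replicate 2 of liver week 1, 2 or 6 or replicate 1 of serum week 6, with values between 0.16 and 0.20, and without serum week 2 replicate 2 the difference was 0.55.

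Calls in the red cell and immune cell lists were all lower in liver, beside 48.7% lower over all 318 tested, and the platelet list was split. Of 6 red cell miRNAs tested, 0 were higher, 5 were lower and 1 was not called (median -3.64). Besides miR-451a and miR-486a-5p these were miR-25-3p (-4.38, SE 0.09), miR-92a-3p (-3.18, SE 0.13) and miR-16-5p (-1.58, SE 0.14). The member not called was miR-144-3p (-0.54, SE 0.46, limma adjusted p = 0.333), which was at 0.71 under median centring. Its partner arm miR-144-5p was detected on all 6 liver arrays and on no serum array. It was not tested, since its liver shares lay below the floor. miR-92a-3p had 0.130%, 0.168% and 0.188% in liver and 1.06%, 1.42% and 2.09% in serum. An index used for haemolysis, the log2 ratio of miR-451a over miR-23a-3p, was 1.74 ± 0.354 in liver and 2.31 ± 0.565 in serum (SD, n = 6 each, exact permutation, two-sided p = 0.0741), and ranged from 1.45 to 2.91 over serum arrays. Its part in the red cell values was not tested. Of 7 immune cell miRNAs tested, 0 were higher, 6 lower and 1 not called (median -2.06), and 4 were lower within the shared slide. miR-150-5p, a lymphocyte miRNA, was detected on 3 liver arrays and had 0.0637%, 0.112% and 0.175% in serum (difference -2.98, SE 0.23), and miR-146a-5p differed by -2.06 (SE 0.13). The platelet list had a median of -0.40, which was 0.84 under median centring, with miR-223-3p and miR-24-3p (-1.88, SE 0.11) lower and miR-126a-3p and miR-151-5p (1.07, SE 0.11) higher in liver. In bulk liver, fewer cells of a type and less RNA per cell cannot be told apart. Serum was spun from blood, so its values do not count cells, and the source of its miRNAs was not tested.

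**Figure D3:**
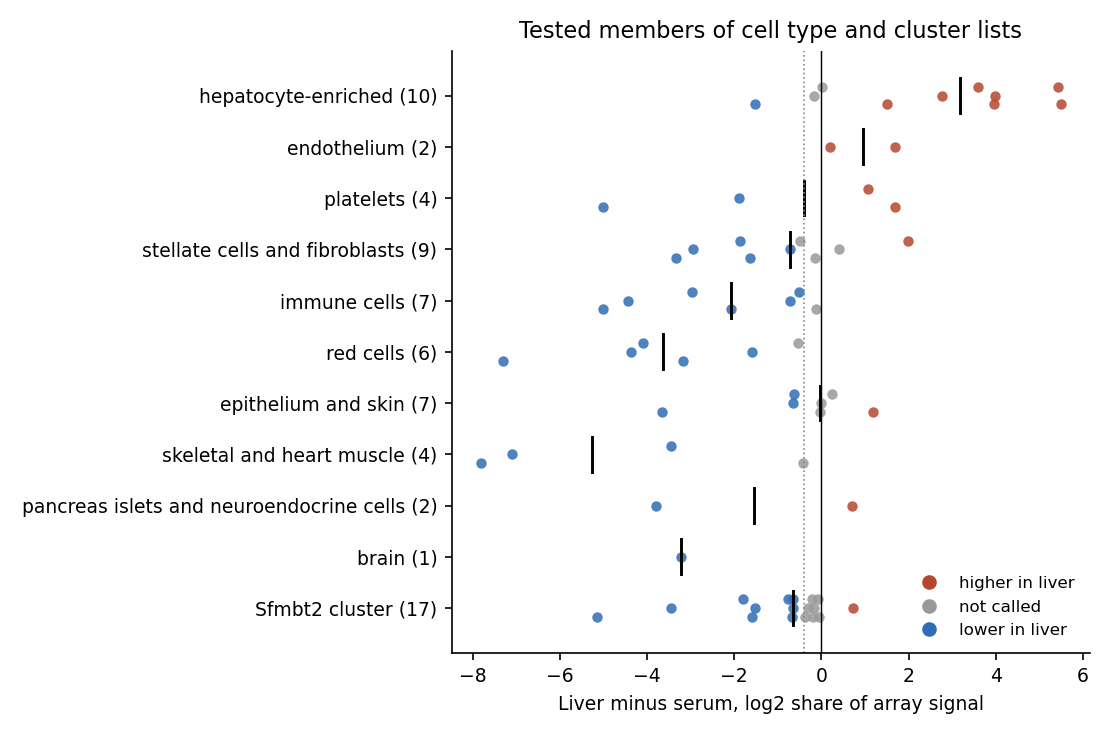
Difference in log2 share, liver minus serum (x axis), for the tested members of 11 lists (rows, number tested in brackets), 1 point per miRNA, coloured by call; the black bar is the list's median, the dotted line the median of all 318 tested. The hepatocyte-enriched list has its median at 3.18, and the red cell and muscle lists have theirs at -3.64 and -5.27.

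The lists of other tissues differed from each other in their counts, beside 17.9% higher and 48.7% lower over all 318 tested. Lower calls in the stellate cell, epithelial and Sfmbt2 lists were near that overall share. Of 4 muscle miRNAs tested, 3 were lower in liver and 1, miR-499-5p, was not called (-0.43, SE 0.20, limma adjusted p = 0.0892). It was at -0.27 without serum week 1 replicate 2, and it was called without serum week 1 replicate 1 (-0.59), week 2 replicate 2 (-0.94) or week 6 replicate 2 (-0.55). No member was detected on a liver array, so none could be called higher, and the list summed to 3.54%, 5.33% and 8.58% (lowest, median, highest) in serum. Of 9 stellate cell and fibroblast miRNAs, 1 was higher (miR-21a-5p), 5 were lower and 3 were not called (median -0.71), and the sign of 4 of the 5 lower calls was the same in the 5 other scalings. miR-214-3p had 0.00452%, 0.00713% and 0.00935% in liver and 0.0844%, 0.160% and 0.173% in serum (-3.32, SE 0.10). miR-222-3p was detected in serum alone, at least 115-fold lower in liver by its bound, with -2.93 in the fit and -2.70 under normexp. Of 7 epithelial and skin miRNAs 1 was higher (miR-31-5p), 3 were lower and 3 were not called, with a median of -0.02 that was 0.60 under median centring, and 1 of the 3 lower calls kept its sign under the 5 other scalings. The neuronal miR-128-3p, the only one of 6 brain miRNAs tested, was lower in liver (-3.21, SE 0.07), while miR-124-3p, miR-9-5p, miR-9-3p and miR-138-5p were detected on no array. The sixth, miR-219a-5p, was detected on all 6 liver arrays at 0.00324%, 0.0113% and 0.0125% (lowest, median, highest) and on no serum array, and was not tested, since its liver shares lay below the floor. The islet list held miR-375-3p and miR-7a-5p, which went opposite ways. Of 20 Dlk1-Dio3 miRNAs, 8 were detected on any array and 1 was tested, miR-434-3p (-0.44, SE 0.07), a call lost within the shared slide. Of the 17 tested miRNAs placed by name alone in the Sfmbt2 cluster, 1 was higher, 9 were lower and 7 were not called (median -0.66). That list summed to between 0.0360% and 0.101% in liver and between 1.08% and 2.03% in serum.

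miRNAs numbered 1000 or above, annotated late and often from few reads, took much of the signal in both tissues. They held 43.2% ± 2.88 in liver and 39.3% ± 3.73 in serum (SD, n = 6 each, exact permutation, two-sided p = 0.0741). Of 114 tested, 6 were higher, 63 were lower and 45 were not called (median -0.77), beside 48.7% lower and a median of -0.40 over all 318 tested. Of the 204 numbered below 1000, let-7 included, 51 were higher, 92 were lower and 61 were not called (median -0.30).

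The let-7 family is known for restraining growth in differentiated tissues. It was higher in liver in 7 of 9 members, with 0 lower and 2 not called. Over all 318 tested, 17.9% were higher and 48.7% lower. Of the 7, let-7e-5p and miR-98-5p were detected on no serum array, so they could not be called lower and add no support. Under normexp let-7e-5p stood at 0.63 and miR-98-5p at -0.039. The family summed to 8.66%, 9.28% and 10.2% in liver and to 1.23%, 2.05% and 4.09% in serum, and its median difference was 2.27. let-7f-5p had 2.02%, 2.43% and 2.70% in liver and 0.0249%, 0.0406% and 0.126% in serum, 48.1-fold higher in liver (5.59, SE 0.16, limma adjusted p = 1.47e-08). let-7a-5p, which differs from it at 1 position, had 2.11%, 2.24% and 2.52% in liver and 0.106%, 0.180% and 0.516% in serum (3.43, SE 0.16). Their liver shares were alike, and the serum shares of let-7f-5p were the lower ones. let-7d-5p differed by 4.02 (SE 0.12), let-7g-5p by 3.03 (SE 0.25) and let-7c-5p by 1.31 (SE 0.16), the last with overlapping groups and at 0.13 (limma adjusted p = 0.849) within the shared slide. let-7b-5p had 0.919%, 0.986% and 1.102% in liver and 0.421%, 0.922% and 1.22% in serum, and was not called (0.31, SE 0.13, limma adjusted p = 0.0596); it was at -0.30 within the shared slide. It was called higher under 75th percentile scaling (1.09) and median centring (1.56), and without serum week 1 replicate 2 (0.36) or week 2 replicate 2 (0.42). let-7i-5p was not called either (-0.42, SE 0.19, limma adjusted p = 0.0786) was above 0 under 4 of the 5 other scalings, and was lower in liver within the shared slide (-1.01, limma adjusted p = 0.0453) and without serum week 2 replicate 1 (-0.59). Near-identical probes may share signal between members of the family.

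**Figure D4:**
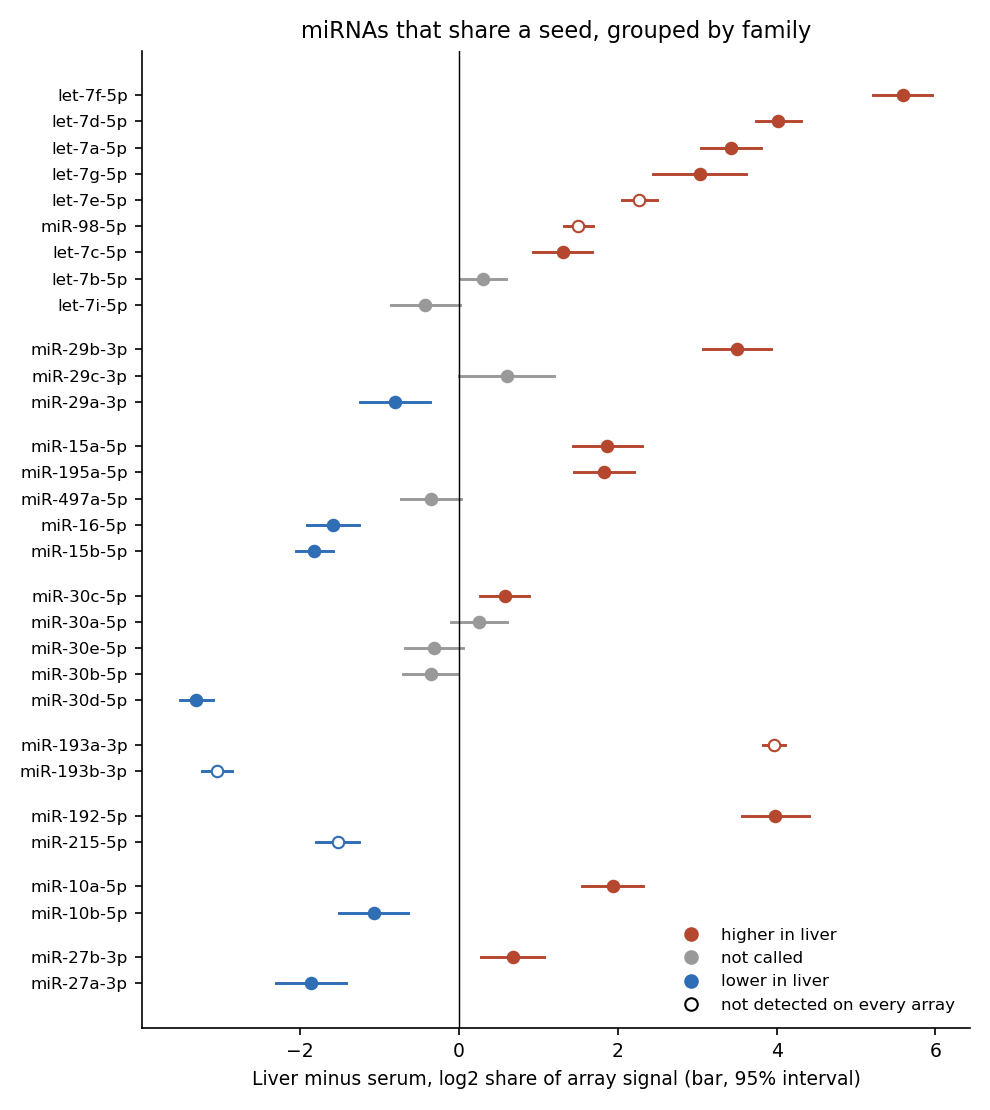
Difference in log2 share, liver minus serum (x axis), with its 95% interval (bars), for miRNAs that share a seed (rows, grouped by family), coloured by call, with open circles for miRNAs not detected on every array. let-7f-5p stands at 5.59 and let-7i-5p at -0.42, and the miR-193, miR-192/miR-215, miR-10 and miR-27 pairs have a member on each side of 0.

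Relatives with 1 seed differed in direction in some families. Of 27 seeds shared by 2 or more tested miRNAs (74 miRNAs), 8 had members called both ways. Over all 318 tested, 17.9% were higher and 48.7% lower, and the count was not compared with that of unrelated miRNAs. The pairs named here were chosen after their values were seen. miR-193a-3p and miR-193b-3p, which differ at 3 of 22 positions, stood at 3.97 and -3.04 (SE 0.06 and 0.08). miR-193b-3p was detected on 3 liver arrays, at 0.00180% to 0.00223%, and had 0.0910%, 0.113% and 0.152% in serum. miR-192-5p and miR-215-5p differ at 3 of 21 positions and stood at 3.99 and -1.52. All serum values of miR-193a-3p, and all liver values of miR-193b-3p and miR-215-5p, lay at the floor, which fixed their fitted signs. miR-10a-5p and miR-10b-5p, encoded in Hox clusters, differ at 1 of 23 positions and stood at 1.94 and -1.07, and miR-10b-5p was not called within the shared slide. miR-27a-3p and miR-27b-3p differ at 1 of 21 positions and stood at -1.86 and 0.68.

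miR-29b-3p had 0.324%, 0.523% and 0.585% in liver and 0.0319%, 0.0419% and 0.0529% in serum (3.50, SE 0.18). miR-29a-3p, which like miR-29b targets collagen mRNAs, had 0.838%, 1.42% and 1.52% in liver and 1.49%, 2.30% and 2.64% in serum (-0.81, SE 0.19), with overlapping groups, a call lost within the shared slide, and a value of 0.44 under median centring. miR-29c-3p, which differs from miR-29a-3p at 1 position, was not called (0.60, SE 0.26, limma adjusted p = 0.0696). It was called higher under median centring (1.85), and without liver week 1 replicate 1 (0.75), liver week 6 replicate 1 (0.78) or serum week 6 replicate 1 (0.73). miR-15a-5p stood at 1.87 (SE 0.19) and miR-15b-5p at -1.82 (SE 0.10). miR-130a-3p stood at 1.17 and miR-130b-3p at -1.79, and miR-20a-5p at 0.56, a call lost within the shared slide, and miR-93-5p at -3.03. Within the miR-30 family, miR-30d-5p had 0.0589%, 0.0654% and 0.0791% in liver and 0.5003%, 0.634% and 0.873% in serum (-3.30, SE 0.09), miR-30c-5p stood at 0.58 (SE 0.13), a call lost within the shared slide, and miR-30a-5p was not called (0.26, SE 0.15), but was under median centring (1.51) and without serum week 6 replicate 1 (0.39). Some families moved together, such as miR-26a-5p (1.89, SE 0.15) with miR-26b-5p (4.21, SE 0.20). In the miR-101 family, miR-101a-3p (3.34), miR-101b-3p (0.36) and miR-101c (2.71) were called higher, and 2 of them within the shared slide. miR-101b-3p was detected on no serum array and miR-101c on 2, so both passed the filter through liver alone, which favours that sign. Under normexp miR-101a-3p stood at 1.31, miR-101b-3p at -0.45 and miR-101c at 1.03. Without serum week 2 replicate 2, miR-101b-3p differed by 0.88.

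miRNAs from 1 genomic cluster share a primary transcript, where they lie on 1 strand close together. Of 28 clusters with tested miRNAs from at least 2 hairpins, joined where gaps were at most 10000 bases, 7 held only higher calls, 11 only lower calls, 9 both and 1 neither. Beside these counts, 17.9% of all 318 tested were higher and 48.7% lower. The cluster at chr5:138165321-138165818, in an intron of Mcm7, held miR-25-3p (-4.38), miR-93-5p (-3.03) and miR-106b-5p (-1.59), all lower in liver. The cluster at chr8:84208518-84208921 held miR-23a-3p (-3.53), miR-24-3p and miR-27a-3p, all lower as well, and miR-23a-3p had 0.217%, 0.241% and 0.292% in liver and 2.15%, 2.87% and 3.69% in serum. Its relative miR-23b-3p had 0.308%, 0.329% and 0.379% in liver and 0.0952%, 0.138% and 0.190% in serum (1.31, SE 0.12). The cluster at chr14:115043851-115044506 (miR-17-92) was split, with miR-92a-3p at -3.18 and miR-19b-3p at 0.76. The cluster at chr1:185313319-185313692 held miR-194-5p (5.43), which a second copy on chr19 also makes, and miR-215-5p (-1.52). The cluster at chr17:17830352-17830879 held let-7e-5p (2.27) and miR-125a-5p (-2.26, SE 0.23). Its relative miR-125b-5p differed by -2.39 (SE 0.18), while miR-99a-5p (0.72) and miR-100-5p (0.79) were higher, calls that were lost within the shared slide.

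A ratio of the 2 arms of a hairpin within an array does not depend on scaling, and it was taken from shares without the floor. The liver shares of miR-378a-5p (0.00924% to 0.0119%) and of miR-29c-5p (0.00682% to 0.00873%) all lay below that floor. Of 5 hairpins with both arms detected on all 12 arrays, 3 (60%) were called. For miR-140, a cartilage-rich miRNA found in many tissues, the log2 ratio of 5p over 3p was 0.33 ± 0.0897 in liver and -2.65 ± 0.277 in serum (SD, n = 6 each). All liver arrays were above 0 (0.19 to 0.43) and all serum arrays below it (-2.94 to -2.28), and the difference was 2.98 (SE 0.14, limma adjusted p = 7.06e-09) and 2.93 within the shared slide. miR-140-3p had 0.0329%, 0.0337% and 0.0357% in liver and 0.484%, 0.979% and 1.29% in serum (-4.66, SE 0.10), whereas miR-140-5p differed by -1.69 (SE 0.10). For miR-378a, encoded in Ppargc1b, the ratio was -2.34 ± 0.148 in liver and -0.84 ± 0.302 in serum (difference -1.50, SE 0.11, limma adjusted p = 3.69e-07), but the difference was -0.31 (limma adjusted p = 0.0880) with the brightest probe. The ratio of miR-29c differed by -0.82 (SE 0.29, limma adjusted p = 0.0281), a call that was lost within the shared slide and without any 1 of 7 arrays. These were liver week 1 replicate 2, both of liver week 2, liver week 6 replicate 2, both of serum week 1 and serum week 6 replicate 2, with values between -0.87 and -0.62. For miR-199a (-0.36, limma adjusted p = 0.0710) and miR-30a (-0.11, limma adjusted p = 0.489) no difference was called, but that of miR-199a was without serum week 2 replicate 2 (-0.50).

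Shares of liver against serum ran with base composition. Among 115 of the 135 tested miRNAs detected on all 12 arrays, those with a RefSeq sequence, GC content correlated with the difference at a Spearman rho of -0.48 and a Pearson r of -0.40. The rho was -0.52 over the 84 numbered below 1000 and -0.09 over the 31 numbered 1000 or above, and -0.48 with the brightest probe of 112 miRNAs. The median GC content was 42.9% in the 31 called higher in liver, 54.5% in the 66 called lower and 43.2% in the 18 not called. miR-6366, at 72.7% GC, was a higher call that went against this order. All points share the same 12 arrays and the 2 labelled amounts, miRNAs are not independent of each other, and the part of base composition in the differences was not tested.

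**Figure D5:**
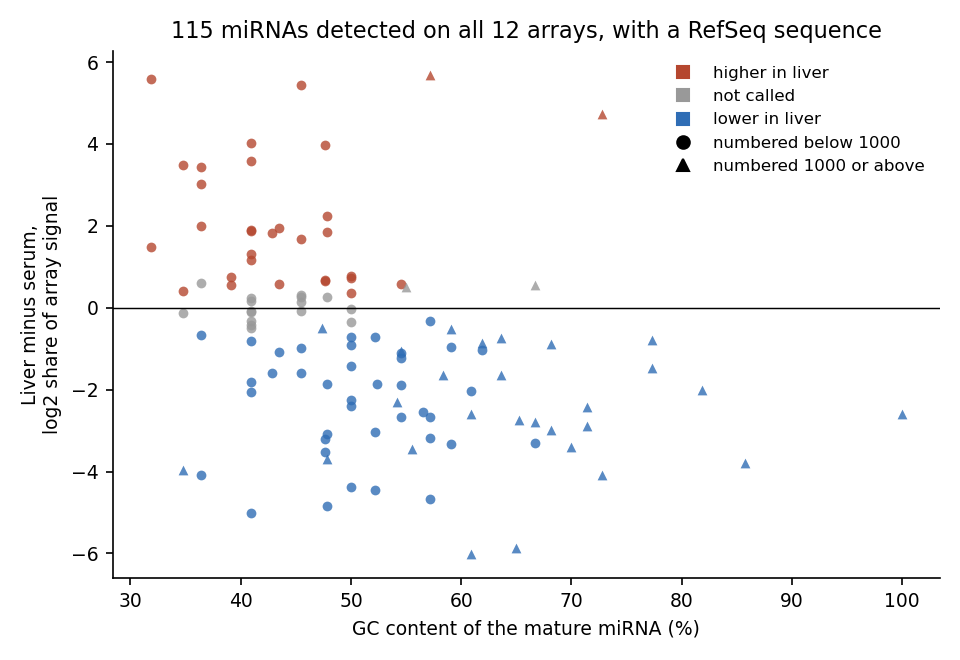
Difference in log2 share, liver minus serum (y axis), against the GC content of the mature miRNA (x axis, percent) for 115 miRNAs detected on all 12 arrays, coloured by call, with circles for miRNAs numbered below 1000 and triangles for the others. Most higher calls lie to the left, with a median of 42.9% against 54.5% for the lower calls.

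The difference between tissues was compared between weeks, and 17 of 318 miRNAs (5.35%) were called. let-7d-5p stood at 4.56, 4.80 and 2.71 at weeks 1, 2 and 6 (limma adjusted p = 0.0175) and let-7f-5p at 6.13, 6.33 and 4.30 (limma adjusted p = 0.0338). The serum arrays of week 6 held the highest serum shares of let-7f-5p, as the plot of shares by array shows. miR-148a-3p stood at 2.59, 3.83 and 4.34 (limma adjusted p = 0.0204). Others named for the smallest p-values were miR-8093 (-1.68, -1.18 and 0.0), miR-212-3p (-0.24, 0.97 and 1.01), miR-3473e (-3.29, -2.31 and -1.67) and miR-3473f (-4.66, -4.27 and -3.52). The 0.0 of miR-8093 at week 6 is no measured equality, since both serum arrays of that week had 0.0104% and 0.0103%, below the floor, and no liver array detected it. The count was 3 under 75th percentile scaling, 11 under median centring and 8 over miRNAs detected on all 12 arrays. It was 1 without either liver array of week 1, either of week 2 or replicate 1 of week 6, and 10 without replicate 2 of week 6. Without a serum array it was 30 and 32 (week 1, replicates 1 and 2), 45 and 62 (week 2) and 22 and 60 (week 6). Serum weeks 1 and 2 lay on one slide, liver week 1 and serum week 6 on another and liver weeks 2 and 6 on the third, so week and slide cannot be told apart in these values.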

How the data were processed

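The deposited files held scanner output of 1-colour (Cy3) miRNA arrays from Agilent, with an intensity per probe and a total gene signal per miRNA, per the file headers. The intensities were background-subtracted by the scanner software, Agilent Feature Extraction 11.5 per the submitters' processing notes, and were not normalized between arrays. Each array held 1881 mouse miRNAs on 4415 probes, with no saturated spot. Groups were taken from the labels, and 12 of 24 arrays were used.

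Shares were computed from the total gene signal over miRNAs called detected. Shares were raised to a common floor of 0.0140%, the highest over arrays of the 5th percentile of detected shares, and taken to log2. miRNAs detected on at least 3 of the 6 arrays of a tissue (408) entered, 102 through liver alone, 107 through serum alone and 199 through both. Of the 408, 90 lay at the floor on all 12 arrays and were not tested, and 318 were tested. Of the tested values 43.7% lay at the floor, so differences of dim miRNAs are understated. limma 3.58.1 (R 4.3.3) was fitted with the 6 tissue and week groups, and the mean over weeks of liver minus serum was tested with Benjamini-Hochberg adjustment at 0.05. Differences are on the log2 scale, with liver minus serum positive where liver is higher. Single array measures were compared by exact permutation of tissue within weeks. The number of arrays limits the precision.

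Named miRNAs were the 10 largest mean shares per tissue, the 12 largest called differences per direction among miRNAs detected on all 12 arrays with 1 sign at all 3 weeks, the 8 largest bounds per direction, the 5 brightest with a 95% interval within 0.5 of 0, up to 5 week differences, up to 4 members per list, the called arm ratios, and a short set of known markers. Relatives by seed or cluster were added after their values were seen. Members and lists were chosen with earlier results of these data known. Alternatives were other scalings, background correction, floors, filters and fits, slide and replicate blocks, and leaving out each array. The normexp alternative (offset 50) used the median signal and the median background. Python 3.11.15 with pandas 2.3.3, numpy 2.4.6 and scipy 1.17.1 was used for the rest.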

Additional observations from a re-analysis of the deposited data

Results flagged for a closer look

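In 180 groups of 6 arrays, 3 had an array far from the others, and chance alone gives about 1 in 20. The share of miR-1897-5p was 0.00185% in liver week 2 replicate 2, against 0.00439% to 0.00630% on the other liver arrays. The share of miR-212-3p was 0.0508% in liver week 6 replicate 2, against 0.0436% to 0.0461% on the others. The share of miR-30a-5p was 0.335% in serum week 6 replicate 2, against 0.581% to 0.701% on the others.

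The difference between liver and serum changed between weeks 1, 2 and 6 in a test of that change itself (limma, adjusted over 318 miRNAs) for the miRNAs below. miR-8093 stood at -1.68, -1.18 and 0.0 (adjusted p = 0.00201). miR-212-3p stood at -0.24, 0.97 and 1.01 (adjusted p = 0.0158). let-7d-5p stood at 4.56, 4.80 and 2.71, miR-3473e at -3.29, -2.31 and -1.67, and miR-3473f at -4.66, -4.27 and -3.52 (adjusted p = 0.0175 each). miR-434-3p stood at -1.18, -0.15 and 0.0 (adjusted p = 0.0184). The 0.0 of miR-8093 and of miR-434-3p at week 6 is no measured equality, since all 4 arrays of that week were at the floor of the fit. miR-148a-3p stood at 2.59, 3.83 and 4.34, and miR-1a-3p at -4.29, -1.69 and -4.34 (adjusted p = 0.0204 each). miR-5128 stood at -6.68, -6.24 and -5.11 (adjusted p = 0.0254). let-7f-5p stood at 6.13, 6.33 and 4.30, and miR-128-3p at -3.44, -3.53 and -2.65 (adjusted p = 0.0338 each). Weeks lay on different slides within each tissue, so week and slide cannot be told apart.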

How the results depend on the processing

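Of 57 higher and 155 lower calls, the number higher was 150 by percentile rank, 105 under median centring, 137 under quantile normalization and 91 with the median floor. The number lower was 256 under normexp and 102 over miRNAs numbered below 1000. Over miRNAs detected on all 12 arrays 117 were called, 36 higher and 81 lower. Signs turned as follows. By percentile rank (points) miR-142a-3p stood at 12.1, miR-148b-3p at 34.3, miR-200a-3p at 40.6, miR-350-3p at 26.6 and let-7i-5p at 3.55. Under 75th percentile scaling these 5 stood at 0.66, 0.47, 0.48, 0.69 and 0.36, and miR-3963 at 0.29. Under median centring they stood at 1.13, 1.12, 1.18, 1.16 and 0.83, with miR-29a-3p at 0.44, miR-3963 at 0.76 and miR-5100 at 0.39. Under quantile normalization they stood at 1.02, 1.92, 2.27, 1.66 and 0.36. Without the brightest miRNAs the first 4 stood at 0.26, 0.18, 0.20 and 0.29, and with the brightest probe miR-142a-3p stood at 0.32. Under normexp miR-100-5p stood at -0.29, miR-101b-3p at -0.45, miR-126a-5p at -0.71, miR-202-3p at -0.45, miR-212-3p at -0.27, miR-28a-5p at -0.53, miR-31-5p at -0.0024, miR-652-5p at -0.15, miR-7a-5p at -0.26, miR-98-5p at -0.039 and miR-3963 at 0.047. With the median floor miR-200a-3p stood at 0.98. With the slide as a fixed block let-7b-5p stood at -0.30, miR-148b-3p at 0.057, miR-200a-3p at 0.25, miR-350-3p at 0.52 and the miR-30a arm ratio at 0.45, and with a random slide block miR-200a-3p at 0.011. Over miRNAs numbered below 1000 miR-200a-3p stood at 0.16 and miR-350-3p at 0.0061. Leaving out 1 array at a time gave -0.13 to 0.17 for miR-200a-3p and -0.20 to 0.023 for miR-350-3p. The cause of these changes was not tested. The same repeats gave 204 to 263 calls, 54 to 63 higher and 150 to 200 lower, and a difference in detected miRNAs of -18.0 to 4.0. It also gave 17.6 to 19.96 points for the 10 brightest, 2.94 to 4.81 points for miRNAs numbered 1000 or above, and -0.69 to -0.44 for the log2 ratio of miR-451a over miR-23a-3p. The share of miRNAs numbered 1000 or above passed an exact permutation test only without liver week 2 replicate 2. The log2 ratio passed only without serum week 2 replicate 2 (-0.64). Week differences numbered 17, against 1 to 62 without 1 array, 3 under 75th percentile scaling, 11 under median centring and 8 over miRNAs detected on all 12 arrays. Arm ratios called numbered 1 with the brightest probe and 2 to 4 without 1 array. Same-numbered arrays of the tissues deviated together at correlations of 0.38, 0.44 and -0.53 at weeks 1, 2 and 6, so the numbers were not taken as pairs, and a replicate block gave 200 calls, 54 higher and 146 lower. Signal over background on the dim serum arrays limits what can be said of miRNAs near the floor.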
